A study of Arabidopsis thaliana with 8 samples.

Results

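Lincomycin is an antibiotic that blocks protein synthesis on plastid ribosomes. Its effect on the transcripts of Arabidopsis seedlings exposed to red light was read from 4 of the 8 arrays of a factorial study of lincomycin and light. The members were chosen by their labels: the 2 arrays of seedlings grown with lincomycin and lit with red light for 30 min (the red lincomycin group), and the 2 arrays of seedlings grown without it and lit in the same way (the red group). All 22746 probe sets other than the 64 controls were compared. The seedlings of every group were wild type Col-0, 4 days old, grown in darkness at 21 °C on Murashige-Skoog medium with 1% sucrose and collected whole. The remaining 4 arrays, 2 with and 2 without lincomycin, came from seedlings collected in darkness. The lincomycin dose is 220 µg/ml in the protocols and 200 µg/ml in the source names, and the labels do not settle which was applied. They also do not say that replicates came from separate cultures, so p-values measure the spread between these arrays only, which may be technical.

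A plastid carries its own genome, which encodes core subunits of the photosystems, the cytochrome b6f complex, the NDH complex and the ATP synthase, and parts of the ribosome and RNA polymerase that express them. The nucleus encodes the remaining subunits, the antenna proteins and the enzymes of the Calvin cycle and of chlorophyll synthesis. In a dark-grown seedling the plastid is an etioplast, and red light, sensed by phytochrome, starts its conversion to a chloroplast. Plastids whose translation is blocked are known to lower nuclear photosynthesis transcripts, a retrograde signal from organelle to nucleus.

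The 4 arrays had median intensities between 32.0 and 33.6. The 2 red arrays correlated at r = 0.979 and differed by over 2-fold for 797 probe sets, against r = 0.994 and 9 probe sets for the 2 red lincomycin arrays. Spike-in controls averaged 6.88 (log2) on replicate 1 of the red group and 7.63 to 8.91 on the other 7 arrays. The 3′ to 5′ ratio of actin was 2.25 to 3.67 on these 4 arrays and 41.2 on replicate 1 of the dark group. That array enters the comparison after red light through the shared estimate of spread, and the values in darkness and the interaction directly. Without it and replicate 1 of the red group, the calls given below as 6 after red light and 223 in darkness became 90 and 3746. Changes below are differences of group means of log2 intensity, red lincomycin minus red, with the standard error (SE) of the limma fit over all 8 arrays and 2 arrays in each group. The threshold for a call was a Benjamini-Hochberg adjusted p below 0.05 over all probe sets. Arrays are said not to overlap where both arrays of one group lay above both of the other.

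Lincomycin after red light gave 6 calls by limma, 0.0264% of the probe sets tested, of which 5 fell (0.022%) and 1 rose (0.0044%). At an unadjusted p under 0.05 there were 1894 probe sets (8.33%), 1021 of them higher (4.49%) and 873 lower (3.84%) with lincomycin. No called probe set has a gene in the annotation used here, so they are given by probe set, and all 6 were named after their values were seen. Probe set 263345_s_at read 10.90 and 10.70 (log2 intensity) on the red arrays and 7.47 and 7.52 on the red lincomycin arrays. It fell by 3.30 ± 0.16 (log2, SE), or 9.87-fold, with an adjusted p of 0.00256 by limma. Probe set 251740_at, the one that rose, read 6.40 and 6.14 on the red arrays and 7.90 and 7.86 with lincomycin, a change of 1.61 ± 0.15 and an adjusted p of 0.0464. In both probe sets the groups lay far apart relative to the spread within each pair.

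The changes of the other 4 called probe sets ran from -3.10 to -2.51 (log2), and all 4 fell. Probe set 256309_at read 11.29 and 10.47 on the red arrays and 7.85 and 7.71 with lincomycin. Readings of 258239_at were 8.03 and 7.46, against 4.81 and 5.02 with lincomycin. For 259491_at they were 9.56 and 9.01, against 6.70 and 6.66. In each of these the red lincomycin arrays agreed more closely with each other than the red arrays did. Probe set 259161_at, at 8.44 and 7.90 against 5.73 and 5.59, shared this pattern. The adjusted p by limma was 0.0464 for 259491_at and 0.0337 for the other 3. With either red lincomycin array left out, none of the 6 passed an adjusted p of 0.05 and no probe set at all was called, although the changes kept their direction. There were 2 calls without replicate 1 of the red group and 24 without replicate 2.

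**Figure D1:**
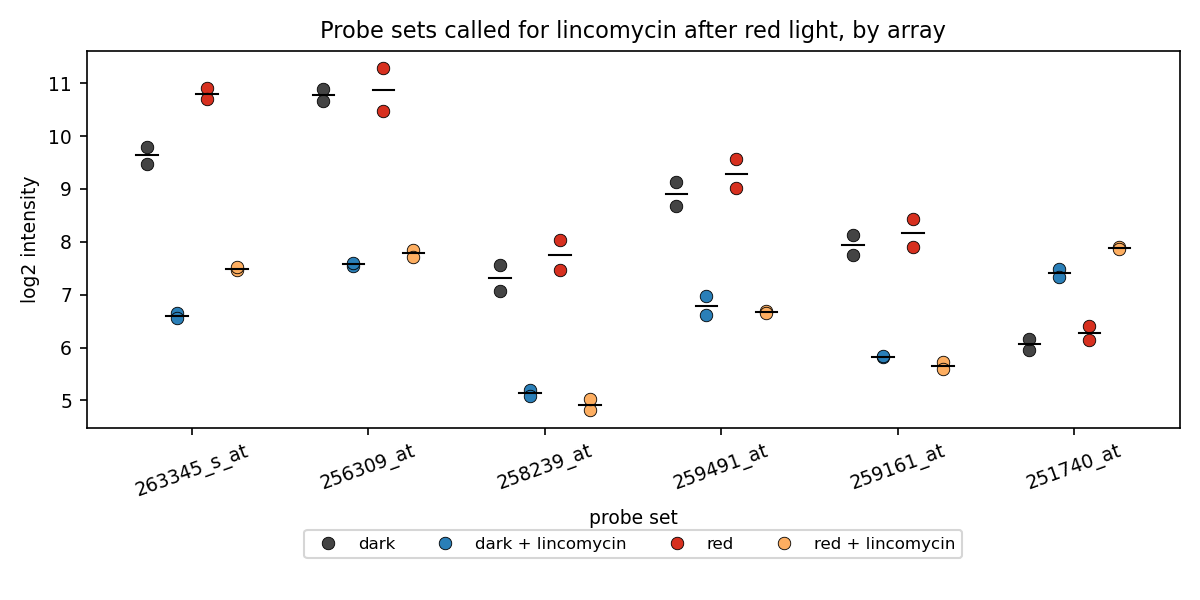
Log2 intensity of the 6 probe sets called after red light, by group; each point is 1 array and each short line the group mean. In 5 probe sets both lincomycin groups lie below both groups without it, and in 251740_at they lie above.

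The largest changes on the array did not pass the threshold. Probe set 255997_s_at, again without a listed gene, read 10.36 and 9.63 on the red arrays and 4.46 and 3.85 on the red lincomycin arrays. That is a difference of -5.84 ± 0.60, or 57.4-fold, with an adjusted p of 0.0594 by limma. Probe set 267002_s_at read 10.17 and 10.06 against 5.56 and 5.14, a difference of -4.76 ± 0.62 with an adjusted p of 0.0752. The largest increase was in AT2G04050, at 4.77 and 5.46 without and 7.21 and 7.62 with lincomycin, a difference of 2.30 ± 0.38 with an adjusted p of 0.144. None of the 3 had overlapping arrays, and all 3 were picked for their size.

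Nuclear genes of photosynthesis were lower with lincomycin as a group, and none was called singly. Of 79 listed genes of the antenna, the photosystems and the Calvin cycle, 12 have a probe set with a listed gene. All 12 changes were below 0, and in 11 the red lincomycin arrays lay wholly below the red arrays. Over all probe sets 51.8% of changes were below 0 and 20.5% lay wholly below. The median change of the 12 was -0.76 (log2), against -0.01 over all probe sets. In 9 of the 12 the unadjusted p was under 0.05, against 3.84% of all probe sets lower at that p. Taken over either red array alone, the median of the 12 stayed between -0.87 and -0.69.

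Among the light-harvesting genes, 3 members of the LHCB4 family were measured, which encode CP29, a minor antenna protein of photosystem II. LHCB4.1 read 11.42 and 11.27 on the red arrays and 10.59 and 10.01 with lincomycin, a difference of -1.04 ± 0.20 and an adjusted p of 0.225 by limma. LHCB4.2 read 9.71 and 10.28 against 9.10 and 8.50, a difference of -1.20 ± 0.33 and an adjusted p of 0.386. LHCB4.3 was dimmer, at 6.65 and 6.59 against 5.89 and 6.09, and differed by -0.63 ± 0.19. The 3 genes lay wholly below the red arrays, against 20.5% of all probe sets.

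Among subunits of the photosynthetic complexes, PSAE-1 stood lowest. It encodes subunit E of photosystem I, on the stromal side where ferredoxin docks. It read 10.78 and 9.83 on the red arrays and 8.44 and 8.32 on the red lincomycin arrays, a difference of -1.92 ± 0.28 or 3.79-fold, with an adjusted p of 0.122 by limma. The 2 red arrays differed by about a factor of 2 between themselves, yet both stood above the lincomycin arrays. PSAN, a luminal subunit of photosystem I, read 9.68 and 9.85 against 9.05 and 8.94, a difference of -0.77 ± 0.15. The photosystem II subunits PSBW and PSBY differed by -0.76 ± 0.23 and -0.72 ± 0.16, and AT1G51400, counted here by its locus code, by -0.88 ± 0.24. ATPC1, the gamma subunit of the plastid ATP synthase, was the only one of the 12 whose arrays overlapped, at 9.98 and 10.21 against 10.06 and 9.68.

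The Calvin cycle was represented by 3 genes. PRK, phosphoribulokinase, read 9.76 and 9.37 on the red arrays and 8.90 and 8.37 with lincomycin, a difference of -0.93 ± 0.22 with an adjusted p of 0.320 by limma. RCA, Rubisco activase, differed by -0.65 ± 0.41 and SBPASE, sedoheptulose bisphosphatase, by -0.49 ± 0.22. All 3 lay wholly below the red arrays, against 20.5% of all probe sets.

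Genes of chlorophyll and haem synthesis were mixed. Of 9 measured genes of tetrapyrrole synthesis, 7 were below 0 with a median change of -0.59, and none was called by limma. Of the 9, 5 lay wholly below the red arrays, against 20.5% of all probe sets, and 2 wholly above. PORB, the light-dependent protochlorophyllide oxidoreductase of greening tissue, read 11.21 and 11.15 without and 10.28 and 9.92 with lincomycin. Its difference of -1.08 ± 0.17 had an adjusted p of 0.138. CHLM, Mg-protoporphyrin methyltransferase, differed by -0.84 ± 0.23, and AT1G74470, named geranylgeranyl reductase in RefSeq, by -0.80 ± 0.22. HEMB1 and HEME1, of the steps before the branch to chlorophyll, differed by -0.63 ± 0.27 and -0.59 ± 0.34. HEME2, of the same step as HEME1, and CHLI2, a subunit of the magnesium chelatase that opens the chlorophyll branch, overlapped between the groups at -0.08 ± 0.20 and -0.05 ± 0.36. At the entry HEMA2, a glutamyl-tRNA reductase, differed by 0.16 ± 0.25 and GSA1, which makes aminolevulinate, by 0.21 ± 0.14. These 2 lay wholly above the red arrays, as did 19.4% of all probe sets, so their position does not set them apart from the rest of the array. The median of the 9 depended on 1 array, and was -0.18 without replicate 1 of the red group.

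**Figure D2:**
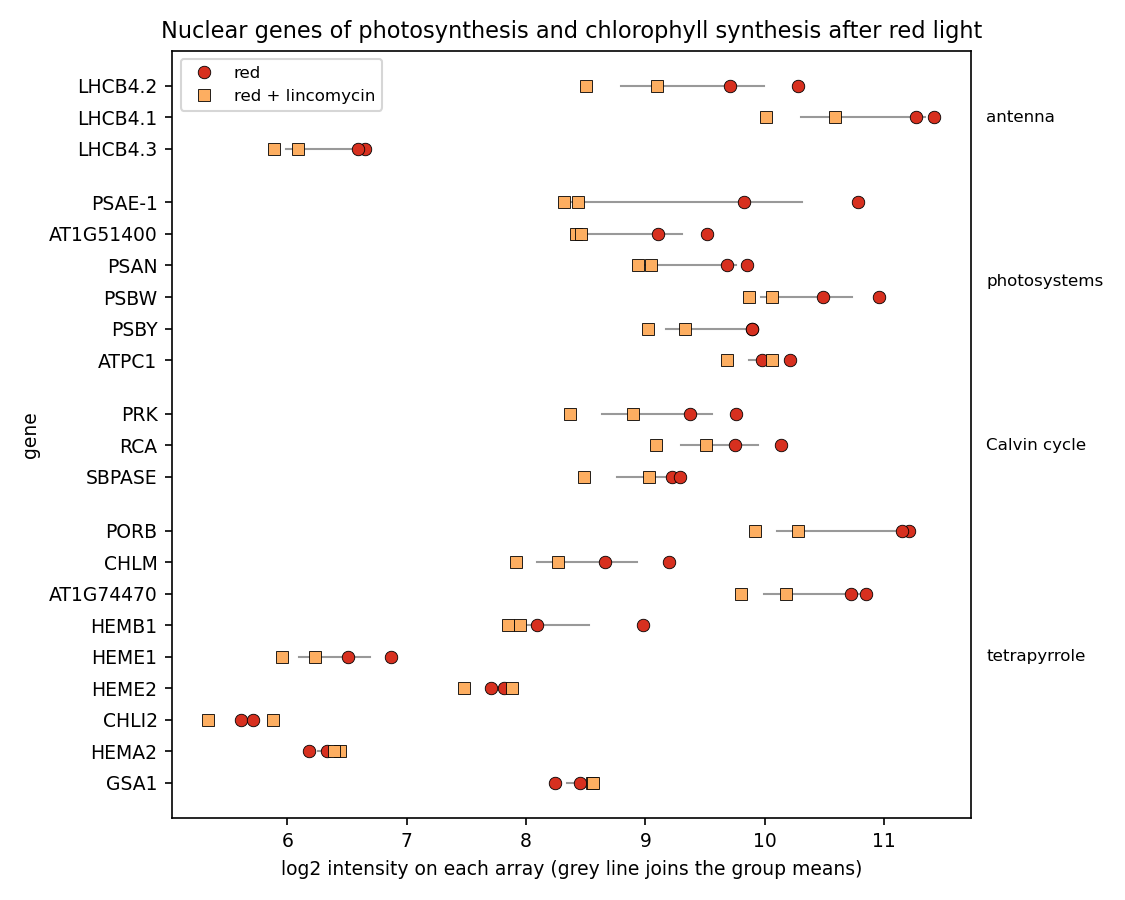
Log2 intensity of 21 nuclear genes of photosynthesis and chlorophyll synthesis on the 2 red arrays (circles) and the 2 red lincomycin arrays (squares), with a grey line between the group means. The squares lie to the left of the circles in 16 genes.

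Median changes of the plastid's own transcripts differed in sign between functional classes, with members of each class going the other way. Over all 76 measured plastid genes the median change was -0.09, with 35 above and 41 below 0 and no call by limma. The lowest adjusted p by limma was 0.225. An unadjusted p under 0.05 was found in 25 genes, of which 16 were lower and 9 higher. Over all probe sets 3.84% were lower and 4.49% higher at that p. Of 26 genes for the photosystems and cytochrome b6f, 22 were below 0, 14 lay wholly below the red arrays, against 20.5% of all probe sets, and the median was -0.63. Of 23 genes for the plastid ribosome and RNA polymerase, 19 were above 0, 13 lay wholly above the red arrays, against 19.4% of all probe sets, and the median was 0.73. That median was 0.17 without replicate 1 of the red group and 1.48 without replicate 2.

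Photosystem II had 14 of 15 genes below 0, against 51.8% of all probe sets, and a median of -0.79. Of the 15, 9 lay wholly below the red arrays, against 20.5% of all probe sets. psbH, a small phosphoprotein of photosystem II, read 8.41 and 9.36 on the red arrays and 6.43 and 6.22 with lincomycin. Its difference of -2.56 ± 0.49, or 5.89-fold, had an adjusted p of 0.225 by limma. psbB, for the core antenna CP47, read 7.08 and 7.17 against 5.85 and 5.71, a difference of -1.34 ± 0.27 and an adjusted p of 0.251. Both genes lay clear of the red arrays, and the gap was wider than that between either pair of replicates. The exception was psbA, for the D1 reaction centre protein, which read 6.24 and 6.26 without and 7.36 and 6.89 with lincomycin, a difference of 0.87 ± 0.41.

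Cytochrome b6f, which carries electrons between the photosystems, had 5 of 6 genes below 0 and a median of -0.68, which was -0.38 without replicate 1 and -0.93 without replicate 2 of the red group. petB, for cytochrome b6, read 10.83 and 11.52 against 9.97 and 9.52, a difference of -1.43 ± 0.56. petA, for cytochrome f, differed by 0.02 ± 0.31. Photosystem I was mixed, with a median of -0.22 over 5 genes, from psaA at -0.88 ± 0.44 to psaC at 0.73 ± 0.36. The ATP synthase had a median of 0.11 over 6 genes, from atpF at -0.47 ± 0.49 to atpA at 1.08 ± 0.73, and that median was -0.33 without replicate 1 and 0.62 without replicate 2 of the red group.

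The NDH complex, which passes electrons back to plastoquinone, had a median of -0.43 with 9 of 11 genes below 0. ndhG read 7.87 and 7.08 on the red arrays and 5.97 and 6.21 with lincomycin, a difference of -1.38 ± 0.29 with an adjusted p of 0.273 by limma. ndhE differed by -1.32 ± 0.30. ndhD went the other way, at 8.76 and 9.70 against 10.67 and 10.43, a difference of 1.32 ± 0.38. In all 3 the arrays did not overlap, but these genes were named for their values. Of the 11 genes, 6 lay wholly below the red arrays, against 20.5% of all probe sets. Only 1 lay wholly above, against 19.4%.

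Genes for plastid gene expression were mostly higher, to an extent that depended on the red array used. Medians were 0.77 over 10 genes of the small ribosomal subunit, 0.73 over 9 of the large subunit and 0.97 over 4 of the RNA polymerase. rpoA, for the alpha subunit of the polymerase, read 10.30 and 10.82 without and 11.43 and 11.33 with lincomycin, a difference of 0.82 ± 0.23 and an adjusted p of 0.387 by limma. rps2, the largest difference at 1.62 ± 1.04, rested on one array, since the red arrays read 5.48 and 7.87 and the red lincomycin arrays 8.39 and 8.20. Some members went the other way. rpl23 at -0.93 ± 0.35, rpl33 at -0.4 ± 0.31 and rps14 at -0.21 ± 0.18 lay wholly below the red arrays, and rpoB differed by -0.14 ± 0.19. The 23 genes were a median of 1.06 lower on replicate 1 of the red group than on replicate 2. Their median change was 0.17 without replicate 1 and 1.48 without replicate 2, while that of photosystem II stayed between -0.96 and -0.67 with any array left out. Replicate 1 is the array with the low spike-in values given above.

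**Figure D3:**
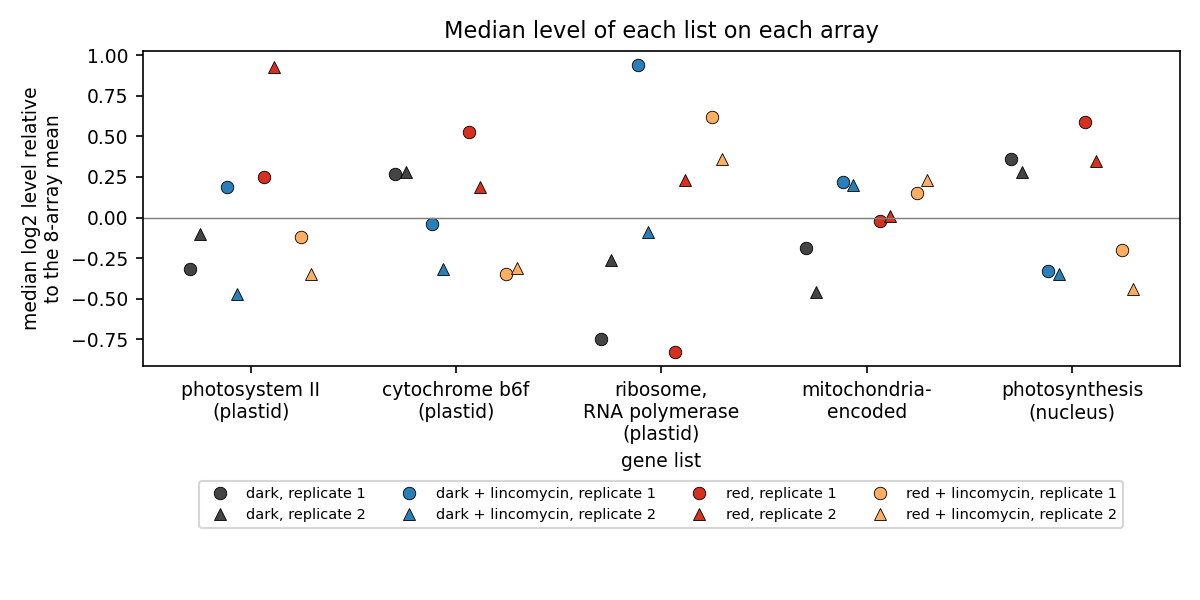
Median of each gene list on each of the 8 arrays, as log2 level relative to each gene's mean over all arrays (circles replicate 1, triangles replicate 2). For nuclear photosynthesis the red arrays stand at 0.59 and 0.35 and the red lincomycin arrays at -0.20 and -0.44, while for the plastid ribosome and RNA polymerase the red arrays stand at -0.83 and 0.23.

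Some stretches of neighbouring plastid genes shared a direction. They were picked after the values were seen, with the order taken from the RefSeq annotation, and no test was made of neighbours in general. Over all probe sets, 20.5% lay wholly below and 19.4% wholly above the red arrays. The 6 measured genes psbB, psbT, psbN, psbH, petB and petD follow one another, and in all 6 the red lincomycin arrays lay wholly below the red arrays, with changes from -2.56 to -0.60. The next measured genes, rpoA, rpl36, rpl14, rpl16, rps3, rpl22 and rps19, were all above 0, from 0.33 to 1.21, and 5 of the 7 lay wholly above. On the other side of psbB, clpP, a subunit of the plastid Clp protease, differed by 1.04 ± 0.33. The neighbours rps2, rpoC2 and rpoC1 were also all higher and apart, with a median of 1.14. The genes on either side of them, atpI at -0.17 ± 0.24 and rpoB at -0.14 ± 0.19, were not. Both were dim, with atpI at 3.82 and 4.12 on the red arrays and 3.78 and 3.83 with lincomycin. Readings of rpoB were 4.29 and 4.44 against 4.32 and 4.13. The floor tried in the closing section was 3.51 (log2). Readings this close to it cannot show whether the rise stops at these genes. Other neighbours went opposite ways, such as psaC at 0.73 ± 0.36 and ndhE at -1.32 ± 0.30, or rpl2 at 1.05 ± 0.87 and rpl23 at -0.93 ± 0.35. Genes of one stretch can share a transcript, so they are not independent measurements.

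**Figure D4:**
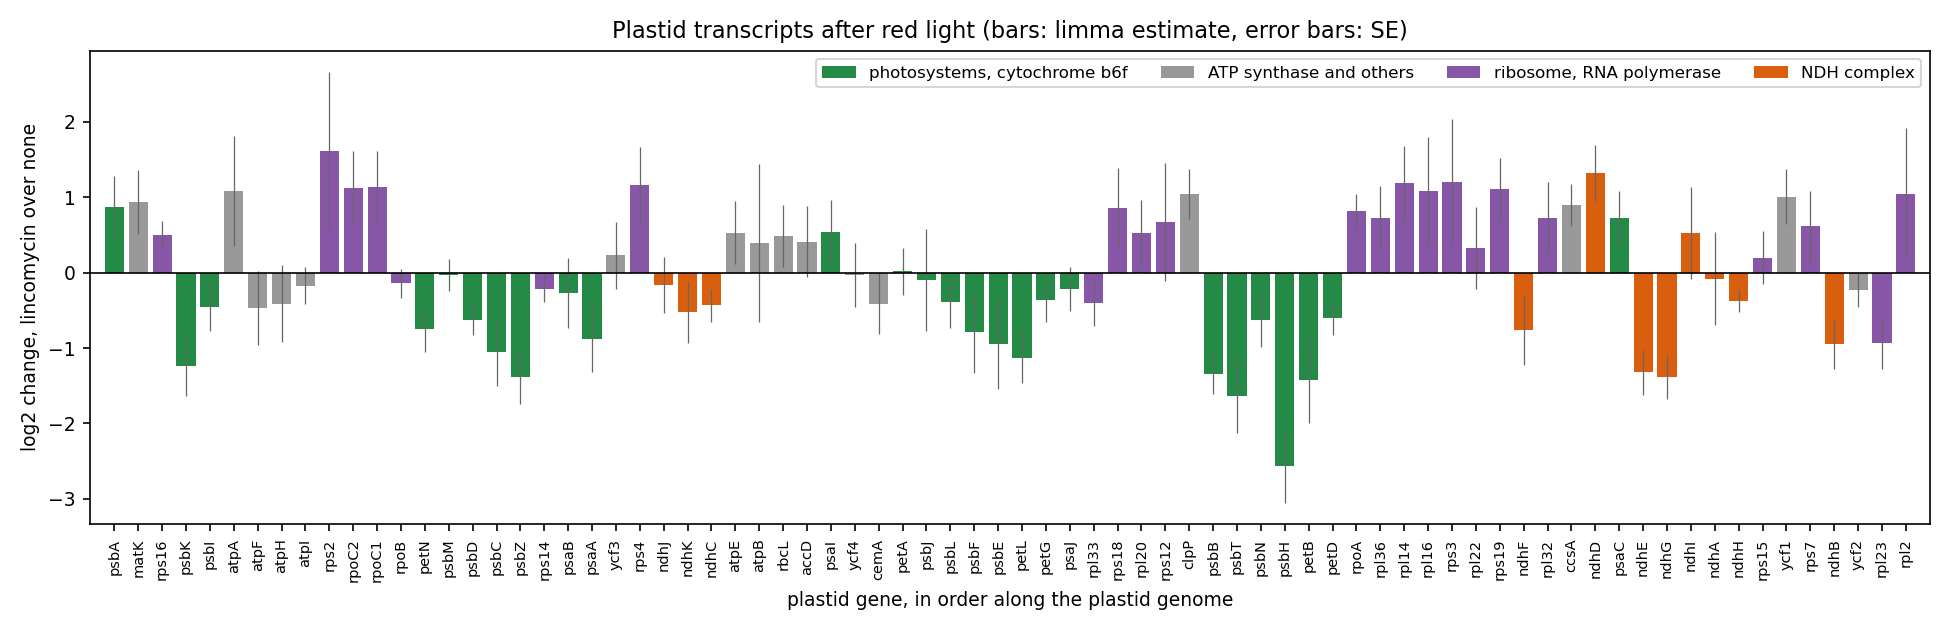
Log2 change (limma estimate, error bars SE) of 76 plastid transcripts after red light, ordered along the plastid genome and coloured by function. Green bars from psbB to petD lie below 0 and the purple bars from rpoA to rps19 lie above it.

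Mitochondrial transcripts differed little. Of 16 measured mitochondria-encoded genes, 13 were above 0 with a median change of 0.09, 6 lay wholly above the red arrays, against 19.4% of all probe sets, and none was called by limma. nad4, a subunit of respiratory complex I, read 4.99 and 5.11 on the red arrays and 6.17 and 6.0 with lincomycin, a difference of 1.03 ± 0.21 with an adjusted p of 0.266. The other 7 measured subunits of complex I differed by -0.01 to 0.48. In cytochrome c oxidase, cox1 differed by 0.38 ± 0.42 and cox2 by 0.28 ± 0.28. In cytochrome c maturation the differences ran from -0.28 ± 0.15 in ccb203 to 0.58 ± 0.27 in ccb382. orfX and matR differed by 0.01 and 0.08, with matR dim at 3.72 and 3.9 on the red arrays.

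Outside photosynthesis, no listed gene was called in either direction. The 3 measured genes of nucleolar ribosome assembly were all above 0 with a median of 1.26. All 3 lay wholly above the red arrays, as did 19.4% of all probe sets. AT1G52930 read 5.33 and 5.35 without and 6.70 and 6.50 with lincomycin, a difference of 1.26 ± 0.14 and an adjusted p of 0.062 by limma. AT4G15770 read 7.51 and 8.20 against 9.17 and 9.46, a difference of 1.46 ± 0.24, and AT3G15460 differed by 0.35 ± 0.18. All 3 were counted by locus code. The 10 measured nuclear genes of plastid ribosomal proteins did not share the pattern of the plastid-encoded ones: 6 were above and 4 below 0, from -0.24 in AT3G13120 to 0.41 in AT4G17560, with a median of 0.11.

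Of the stress lists, mitochondrial stress was the highest. Its 3 genes lay wholly above the red arrays, as did 19.4% of all probe sets. Their median was 0.65, and 0.20 without replicate 1 of the red group. They ran from 0.11 in NDB2, an alternative NADH dehydrogenase, to 0.73 ± 0.23 in AT2G21640, counted by its locus code. The 3 genes of touch, wounding and rapid stress lay wholly above the red arrays by small amounts, from 0.12 in STZ, a zinc finger repressor, to 0.34 in WRKY53, a senescence regulator. Among the 4 cold and dehydration genes, COR15B differed by 0.14, COR15A by 0.26 and LEA4-5 by 0.39. On the red arrays WRKY53 read 3.49 and 3.62, COR15A 3.57 and 3.53, and COR15B 3.66 and 3.92. These lie near the floor of 3.51 (log2) tried in the closing section, so their changes cannot be told from background. The 5 genes of the endoplasmic reticulum stress list ran from -0.01 in BZIP60 to 0.49 in ATERDJ3B. In the heat list AT1G53540 differed by 0.16.

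Among tau glutathione S-transferases, which conjugate glutathione to foreign compounds, 4 of 7 were above 0 with a median of 0.09. GSTU18 was the lowest, at 6.62 and 6.82 on the red arrays against 5.65 and 6.14 with lincomycin, a difference of -0.82 ± 0.20 and an adjusted p of 0.331 by limma. GSTU25 was the highest at 0.44 ± 0.21. The flavonoid list had a median of 0.03 over 7 genes, from -0.22 in BAN, anthocyanidin reductase, to 0.53 in UGT78D1, a flavonol glycosyltransferase. BAN was dim, at 4.07 and 3.49 on the red arrays and 3.57 and 3.54 with lincomycin, near the floor of 3.51 (log2) tried in the closing section.

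Growth and light-response genes showed small differences. The auxin list had a median of -0.11, from -0.44 ± 0.25 in WES1, an amido synthetase that conjugates auxin, to 0.20 ± 0.19 in GH3.1. Of 5 cell wall genes 4 were above 0, with XTH19, a xyloglucan endotransglucosylase, highest at 0.56 ± 0.25 and XTH20 lowest at -0.03. The 2 measured light-signalling genes were HAT2 at -0.21 and FHL, a carrier of phytochrome A to the nucleus, at 0.03. GI, a clock protein, differed by -0.08 ± 0.16. Genes met singly were LYC of carotenoid synthesis at -0.12, HYH of light signalling at -0.18 and AT5G15700 of plastid transcription at -0.27. Reference genes had a median of -0.30, from -0.58 ± 0.24 in AT4G26410 to 0.08 ± 0.22 in GAPC2. Apart from the nucleolar genes, each of these lists lay closer to 0 than nuclear photosynthesis did, and the reference genes, chosen as stable, reached differences of similar size.

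The tissue label was checked against marker genes, of which few are named on this array. In the etiolated seedling list only ICL, isocitrate lyase of fat mobilisation, was measured, and it was among the brighter transcripts at 12.18 and 12.42 on the red arrays and 12.60 and 12.39 with lincomycin. The root hair genes EXPA7 and EXPA18 differed by -0.54 ± 0.25 and -0.40 ± 0.23, both at log2 intensities between 4.90 and 5.91. Lists for embryo, epidermis, vasculature and flower had no measured member. In whole seedlings, fewer cells of a type and less RNA per cell cannot be told apart.

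Across all 13367 probe sets with 1 nuclear gene, 622 were higher and 406 lower at an unadjusted p under 0.05, and none was called. Over all probe sets, with or without a gene, 4.49% were higher and 3.84% lower at that p. The 12 with the lowest p in each direction were chosen after values were seen and are given as a description. The 12 higher ones differed by 0.96 to 1.57, led by AT5G62290 at 5.81 and 5.83 against 7.58 and 7.20, with an adjusted p of 0.0594 by limma. AT1G52930 of the nucleolar list was the next. The 12 lower ones differed by 0.77 to 2.47 and held PSAE-1, PORB and HPR, hydroxypyruvate reductase of photorespiration. HPR read 9.63 and 9.32 without and 8.43 and 7.88 with lincomycin, a difference of -1.32 ± 0.21. AT2G42220 had the lowest p among them, at 8.86 and 8.11 against 6.13 and 5.90, a difference of -2.47 ± 0.26 or 5.55-fold with an adjusted p of 0.0594.

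Lincomycin in darkness was the most similar comparison, and it shares no array with the one after red light, only the estimate of spread. It gave 223 calls by limma (0.98%), 102 higher (0.448%) and 121 lower (0.532%). That count was unstable: it was 4 with the replicate number as a block, 0 without any 1 lincomycin array, 295 without replicate 1 of the dark group and 1950 without replicate 2. Over all probe sets, 51.8% were below 0 after red light, 19.4% lay wholly above and 20.5% wholly below the red arrays. Of the 102 higher ones, 85 (83.3%) were also above 0 after red light and 68 lay wholly above the red arrays, with medians of 1.22 in darkness and 0.31 after red light. Of the 121 lower ones, 88 (72.7%) were below 0 after red light and 69 lay wholly below, with medians of -1.21 and -0.18. These probe sets were chosen for their change in darkness, so the sizes of the 2 medians are not comparable. All 6 probe sets called after red light were also called in darkness in the same direction, with changes there of -3.04 in 263345_s_at and 1.35 in 251740_at.

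**Figure D5:**
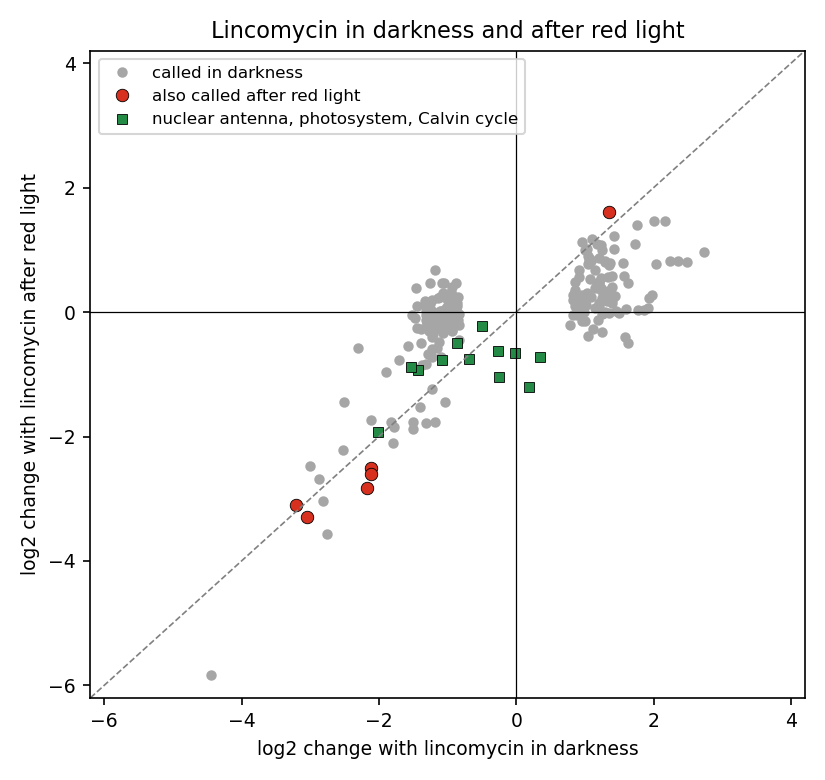
Log2 change with lincomycin in darkness (x) and after red light (y) for probe sets called in darkness (grey), those also called after red light (red) and 12 nuclear photosynthesis genes (green squares); the dashed line marks equal change. The 12 green squares all lie below 0 on the y axis, and 10 of them lie below 0 on the x axis.

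The difference between the lincomycin effects in the 2 light conditions was tested as the interaction, and 0 probe sets (0%) passed at an adjusted p under 0.05 by limma, the lowest being 0.316. At an unadjusted p under 0.05 there were 2359 probe sets (10.4%). The lowest p belonged to AT5G22280, which differed by 0.47 after red light and -1.25 in darkness. AT1G56720 differed by -0.04 and -1.52 in the same order, AT5G53880 by 0.39 and -1.46, and AT3G44280 by 0.46 and -1.08. AT2G31110, named TRICHOME BIREFRINGENCE-LIKE 40 in RefSeq, ran the other way, at -0.93 after red light and 0.68 in darkness. All 5 had an adjusted interaction p of 0.316 by limma.

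Within the photosynthesis genes, limma called 4 of the 12 in darkness, against 0.98% of all probe sets. These were PSAE-1 at -2.01 (adjusted p 0.0406), AT1G51400 at -1.53 (0.0484), PRK at -1.43 (0.0455) and PSAN at -1.08 (0.0395). The antenna genes differed less in darkness, by 0.18 in LHCB4.2, -0.25 in LHCB4.1 and -0.27 in LHCB4.3. PSBY differed by 0.34 in darkness and -0.72 after red light, with an unadjusted interaction p of 0.00231 and an adjusted p of 0.336 by limma. The median of photosystem II genes was 0.09 in darkness and -0.79 after red light, that of the plastid ribosome and RNA polymerase was 1.08 and 0.73, and that of mitochondria-encoded genes 0.60 and 0.09. These differences between list medians were not tested, and no member of these lists passed the interaction test.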

How the data were processed

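The authors deposited 1 linear intensity per probe set and array, made with RMA per the submitters' processing notes (version not given in the sources used here), and log2 was taken of these deposited intensities. Groups came from the labels. Group means were fitted over all 8 arrays with limma 3.58.1 (lmFit, eBayes with default settings, no block) in R 4.3.3, with degrees of freedom of 4 (residual) and 3.19 (prior), two-sided, adjusted over 22746 probe sets. The number of arrays limits the precision.

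Genes came from the supplied platform annotation. Of the tested probe sets, 13513 had 1 gene, 503 several and 8730 none, and 13436 of the 13513 matched RefSeq (TAIR10.1), used for names and gene order. Plastid probe sets listing both inverted-repeat copies of a gene (8) were used. Where a gene had more than 1 probe set, the brightest was used.

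Of 493 genes on 29 lists, 92 were measured. The members and lists were chosen with earlier results of these data known. The rule for naming was, per list and organelle complex, the members with the lowest p and the highest and lowest change. The 5 lowest interaction p and the called probe sets were added. All others were chosen after seeing values. The rule was not followed in full. Members that met it but are named only here include petL at -1.13 after red light, rps16 at 0.5, ccsA at 0.9 and cemA at -0.41. Others are XTH33 at 0.54 and AT2G28390 of the reference genes at -0.45. No called probe set had 1 gene. Sequences and promoters were not used here. Replicate numbers were not taken to pair the arrays: replicate differences correlated between groups at -0.325 (dark, red lincomycin) to 0.441 (dark, red), and at -0.121 between the red and red lincomycin groups. Alternatives are given in the closing section. The fit was run on simulated data with 100 probe sets changed by 1 (log2) and 100 by 2. It called 55% and 95% of them, with 11 false calls. The simulation gave each probe set the same spread in every group. In the data the standard deviation of replicate differences was 0.538 (dark), 0.442 (red), 0.211 (dark lincomycin) and 0.224 (red lincomycin). The simulation therefore does not show how the fit performs at these unequal spreads. Tables and figures used Python 3.11.15, numpy 2.4.6, pandas 2.3.3 and matplotlib 3.10.9.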

Additional observations from a re-analysis of the deposited data

Results flagged for a closer look

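The 4 measured genes for organelle RNA processing factors differed in direction between the 2 light conditions: all 4 were above 0 with lincomycin after red light, with a median of 0.32 (log2), and all 4 were below 0 in darkness, with a median of -0.27. The first median ran from 0.14 (without replicate 1 of the red lincomycin group) to 0.45 (without replicate 2) with 1 array left out. CAF1, a factor for splicing of plastid introns, read 4.04 and 4.03 on the red arrays and 4.74 and 4.26 with lincomycin. On the red arrays CRR21 read 3.46 and 3.94, CFM3A 3.72 and 4.11, and the brighter LPA66 5.68 and 5.61. The differences after red light were 0.47 ± 0.19 in CAF1, 0.47 ± 0.21 in CRR21, 0.16 ± 0.15 in LPA66 and 0.03 ± 0.26 in CFM3A. In darkness they were -0.21, -0.37, -0.11 and -0.33 in the same order, with the same SE. CAF1, CRR21 and CFM3A lay near the floor of 3.51 (log2) tried below, so their change of sign cannot be told from background. How many of all probe sets share this sign pattern was not counted. The difference of the list between the conditions was not tested, and the lowest adjusted interaction p among its members was 0.413 by limma.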

How the results depend on the processing

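After red light the 6 calls became 18 with array medians shifted to a common value, 1 with quantile normalization, 26 without the dimmest 30%, 0 with a floor at the 20th percentile (1884 at an unadjusted p under 0.05), 21 with trend and robust, 1 with the replicate block, and 0 to 32 with an array left out (0 without either red lincomycin array, 1 without either dark lincomycin array, 2 and 24 without replicate 1 and 2 of the red group, 32 without either dark array). The 223 calls in darkness became 341 with shifted medians, 124 with the floor, 108 with trend and robust, 4 with the replicate block, and 0 to 1950 with an array left out (0 without any 1 lincomycin array, 405 without either red array, 1950 without replicate 2 of the dark group). The interaction gave 0 to 609 with an array left out, 609 only without replicate 2 of the dark group, and 0 in the other settings, the block included. The cause of these moves was not tested.

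Added after seeing the data, array quality weights gave 31 calls after red light. Leaving out replicate 1 of the dark and red groups together, whose control probe sets stood apart, gave 90 after red light and 3746 in darkness, with the lone arrays assumed to vary like the other groups. PSAE-1 (adjusted p 0.0115 by limma), psbH (0.0153) and petB (0.0455) were then among the calls. List medians moved there to -0.18 for tetrapyrrole synthesis, 0.04 for cell wall, 0.20 for mitochondrial stress, 0.18 for touch and for endoplasmic reticulum stress, 1.12 for nucleolus, 0.03 for reference genes, -0.38 for cytochrome b6f, 0.05 and 0.17 for the small and large ribosomal subunits, 0.54 for RNA polymerase, 0.17 for both together and 0.14 for complex I.

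With shifted medians complex I gave 0.03 and cytochrome c maturation 0.00, and with quantile normalization the latter gave -0.01. With 1 array left out, medians ran from -0.78 to -0.18 for tetrapyrrole synthesis, -0.13 to 0.28 for nuclear plastid ribosomal proteins, -0.22 to 0.05 for auxin, 0.04 to 0.81 for cell wall, 0.20 to 0.71 for mitochondrial stress, 0.18 to 0.36 for touch, 0.09 to 0.44 for cold, -0.01 to 0.22 for endoplasmic reticulum stress, 1.12 to 1.32 for nucleolus and -0.47 to 0.03 for reference genes. For organelle genes they ran from -0.46 to 0.37 for photosystem I, -0.93 to -0.38 for cytochrome b6f, -0.53 to -0.13 for NDH, -0.33 to 0.62 for ATP synthase, 0.05 to 1.59 and 0.17 to 0.98 for the small and large ribosomal subunits, 0.54 to 1.30 for RNA polymerase, 0.17 to 1.48 for both together, 0.16 to 0.90 for other plastid genes, 0.07 to 0.14 for complex I, 0.02 to 0.10 for cytochrome c maturation, -0.28 to 0.30 for all plastid genes and 0.07 to 0.15 for all mitochondrial genes. Nuclear photosynthesis stayed between -0.87 and -0.69. The 6 called probe sets kept their direction in each setting for which single probe sets were recomputed. The array weights were not among these settings.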
